A study of Mus musculus with 9 samples.

Results

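The genes described here are 10 targets of the transcription factor p53 or genes linked to growth arrest: Cdkn1a, Btg2, Gadd45a, Gadd45b, Gadd45g, Mdm2, Ccng1, Phlda3, Bax and Bbc3. They were taken by symbol from a table of 25781 genes, each symbol matched 1 row, and all 10 were among the 20145 genes tested, which excluded those averaging under 1 scaled count. The table came from RNA sequencing of liver from Swiss mice aged 10 to 12 weeks, in 3 groups of 3 libraries. The selenite + β-CYP mice were given 40 mg/kg β-CYP with 50 µg/kg sodium selenite (Na2SeO3), and the study's design names them its repair group. The β-CYP mice were given 40 mg/kg β-CYP alone and are named its injury group, and the third group is labelled control. The labels state neither a genotype nor what β-CYP stands for, so the abbreviation is kept, and give no route or time of dosing. Nor do they state how many animals stand behind the 3 libraries of each group, so every p-value measures the spread among libraries, and this may be technical.

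p53 is a transcription factor that is held at a low level by the ubiquitin ligase Mdm2 and builds up mainly as a protein after DNA damage or other stress. It switches on genes that stop the cell cycle, repair DNA, remove damaged cells or, like Mdm2, shut p53 down again. In liver, Cdkn1a, Btg2 and the Gadd45 genes also respond to stress kinases, inflammation, feeding and time of day, so a change in their mRNA does not by itself report p53 activity.

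Depth ran from 28630269 to 36029560 assigned reads per library. The authors' values are read counts scaled to each library's size, called scaled counts here. None of the 6 hepatocyte markers was at 0, and Alb alone took 6.01% or more of the reads in all 9 libraries, but these markers moved with the groups. They summed to 2515270 to 2546990 scaled counts in the selenite + β-CYP livers, 3144160 to 3252970 in the β-CYP livers and 2672190 to 2807200 in the control livers. Of the 6, all fell with selenite + β-CYP against β-CYP, or 3 under equal library totals, and 3 rose and 1 fell with β-CYP against control. The control replicate 2 library stood apart by 1805976 reads of the ribosomal-RNA-like gene AY036118, against 26685 to 71931 in the other libraries. Markers of other cells also moved with the groups. The summed scaled counts of 11 pancreatic acinar markers were 33990 to 35453 in the selenite + β-CYP livers, 1155 to 1232 in the β-CYP livers and 983 to 1157 in the control livers, with 7 of the 11 at 0 in both of these last groups. The 10 neutrophil markers summed to 663 to 740 in the selenite + β-CYP livers, 455 to 508 in the β-CYP livers and 87.6 to 98.3 in the control livers. The acinar and neutrophil sums were both highest in the selenite + β-CYP livers. The 6 spermatid markers summed to 0 to 4.60 in the selenite + β-CYP livers, 2.77 to 8.32 in the β-CYP livers and 272 to 297 in the control livers. The spermatid sum was high in the control livers alone. The 8 macrophage markers summed to 13917 to 14075 in the selenite + β-CYP livers, 11519 to 11596 in the β-CYP livers and 11659 to 11961 in the control livers. The 6 erythroid markers summed to 21403 to 22004 in the selenite + β-CYP livers, 24783 to 25796 in the β-CYP livers and 29021 to 29304 in the control livers. Mitochondrial genes took 6.67% to 6.88% of the reads in the selenite + β-CYP livers, 5.68% to 5.79% in the β-CYP livers and 7.91% to 8.18% in the control livers. These values stand beside every comparison below, and their part in the results was not tested. In bulk liver, fewer cells of a type and less RNA per cell cannot be told apart.

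Promoters of the 5 genes with the largest changes are printed so that the genes that moved together can be set beside the ones that did not. The sequences are RefSeq's on GRCm38.p6, 250 bases before to 50 bases after the annotated start, 5′ to 3′ on the gene's strand, and all 10 genes were found there, with 13 windows in all. Capitals mark the p53 decamer, which is the unit repeated in a full p53 response element, the motif TATAA, and the cyclic-AMP response motif TGACGTCA, each searched on both strands.
Cdkn1a upstream start (chr17:29090729-29091028, plus strand): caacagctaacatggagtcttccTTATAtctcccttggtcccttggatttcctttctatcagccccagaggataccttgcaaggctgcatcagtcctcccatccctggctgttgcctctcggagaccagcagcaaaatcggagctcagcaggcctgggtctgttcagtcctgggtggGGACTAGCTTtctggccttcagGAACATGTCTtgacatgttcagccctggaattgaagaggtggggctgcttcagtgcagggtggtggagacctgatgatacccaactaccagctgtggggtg
Cdkn1a downstream start (chr17:29093519-29093818, plus strand): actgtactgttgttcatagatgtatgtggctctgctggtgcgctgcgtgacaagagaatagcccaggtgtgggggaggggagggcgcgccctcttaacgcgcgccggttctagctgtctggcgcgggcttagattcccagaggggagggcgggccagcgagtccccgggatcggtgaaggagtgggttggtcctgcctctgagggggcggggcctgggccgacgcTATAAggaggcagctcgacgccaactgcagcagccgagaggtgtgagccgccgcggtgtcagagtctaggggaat
Btg2 (chr1:134079106-134079405, minus strand): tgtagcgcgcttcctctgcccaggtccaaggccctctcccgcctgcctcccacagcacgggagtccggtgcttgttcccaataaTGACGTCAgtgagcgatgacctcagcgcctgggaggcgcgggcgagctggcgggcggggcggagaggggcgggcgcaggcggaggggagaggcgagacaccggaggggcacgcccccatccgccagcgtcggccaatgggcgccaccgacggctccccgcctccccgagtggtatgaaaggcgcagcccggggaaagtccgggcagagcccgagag
Gadd45a (chr6:67037358-67037657, minus strand): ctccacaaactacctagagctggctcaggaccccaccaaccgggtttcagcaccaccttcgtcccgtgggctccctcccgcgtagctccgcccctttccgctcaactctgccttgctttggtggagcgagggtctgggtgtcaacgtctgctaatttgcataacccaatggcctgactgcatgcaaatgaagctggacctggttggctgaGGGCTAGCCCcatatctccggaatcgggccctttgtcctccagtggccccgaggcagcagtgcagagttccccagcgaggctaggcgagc
Gadd45b (chr10:80929841-80930140, plus strand): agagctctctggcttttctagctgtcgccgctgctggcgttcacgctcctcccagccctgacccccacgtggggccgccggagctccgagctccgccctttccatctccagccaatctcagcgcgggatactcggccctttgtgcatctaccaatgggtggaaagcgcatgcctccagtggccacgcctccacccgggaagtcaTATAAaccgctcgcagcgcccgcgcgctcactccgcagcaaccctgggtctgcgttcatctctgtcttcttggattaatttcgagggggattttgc
Gadd45g (chr13:51846425-51846724, plus strand): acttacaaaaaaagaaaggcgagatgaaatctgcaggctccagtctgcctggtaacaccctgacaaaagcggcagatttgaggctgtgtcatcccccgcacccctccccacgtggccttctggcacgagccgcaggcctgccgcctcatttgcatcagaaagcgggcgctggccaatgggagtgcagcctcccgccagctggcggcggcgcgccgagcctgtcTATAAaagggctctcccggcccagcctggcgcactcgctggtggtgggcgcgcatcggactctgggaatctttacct

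The Cdkn1a window at its upstream start held 2 matches to the p53 decamer, at positions -73 to -64 and -51 to -42. The second was followed by 10 bases with 1 mismatch to another decamer. The decamer of Ccng1, at positions -185 to -176 of a window not printed, was likewise preceded by 10 bases with 1 mismatch. The Gadd45a window held 1 decamer, at positions -40 to -31, while the windows of Btg2, Gadd45b and Gadd45g held none. TATAA stood at position -25 of the downstream Cdkn1a window, -46 of Gadd45b and -27 of Gadd45g, and on the opposite strand at -227 of the upstream Cdkn1a window. Btg2 had the only TGACGTCA among these windows, at positions -166 to -159. The decamer was found in 5 of the 13 windows (38.5%), those of Cdkn1a, Gadd45a, Mdm2, Ccng1 and Bax, against 8.36% of 32851 mouse windows of the same length. As the genes were chosen as p53 targets or growth-arrest genes, this difference is a description and not a test. Some of the 13 windows also overlap, those of Bbc3 at chr7:16310011-16310310 and chr7:16310181-16310480. TATAA was found in 4 of the 13 (30.8%) against 24.9% of all windows, and TGACGTCA in 1 (7.69%) against 1.79%. Of the motifs not marked above, CCAAT was found in 7 of the 13 (53.8%) against 37.4% and GGGCGG in 10 (76.9%) against 35.7%. Of the 5 genes whose window held a decamer, Cdkn1a and Gadd45a rose with β-CYP, and Mdm2, Ccng1 and Bax did not pass the test there. These matches describe letters in a short window and carry no evidence of binding.

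With β-CYP alone, 4 of the 10 genes rose and none fell: Cdkn1a, Btg2, Gadd45a and Gadd45b. The call of Gadd45b was lost in 14 of 20 alternative fits. At an unadjusted p under 0.05 in limma the counts were 5 and 0, and the share of all genes at that threshold was not counted. With limma-voom 3 rose and none fell, beside 1497 up and 1750 down over all 20145 genes. Across all genes tested 16.3% passed the same test (limma, adjusted p under 0.05), 7.72% upward and 8.58% downward. The median log2 change was 0.31 over the 10 genes and -0.0013 over all genes. Gadd45g, also linked to growth arrest, did not pass, nor did the regulators and death genes Mdm2, Ccng1, Phlda3, Bax and Bbc3.

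**Figure D1:**
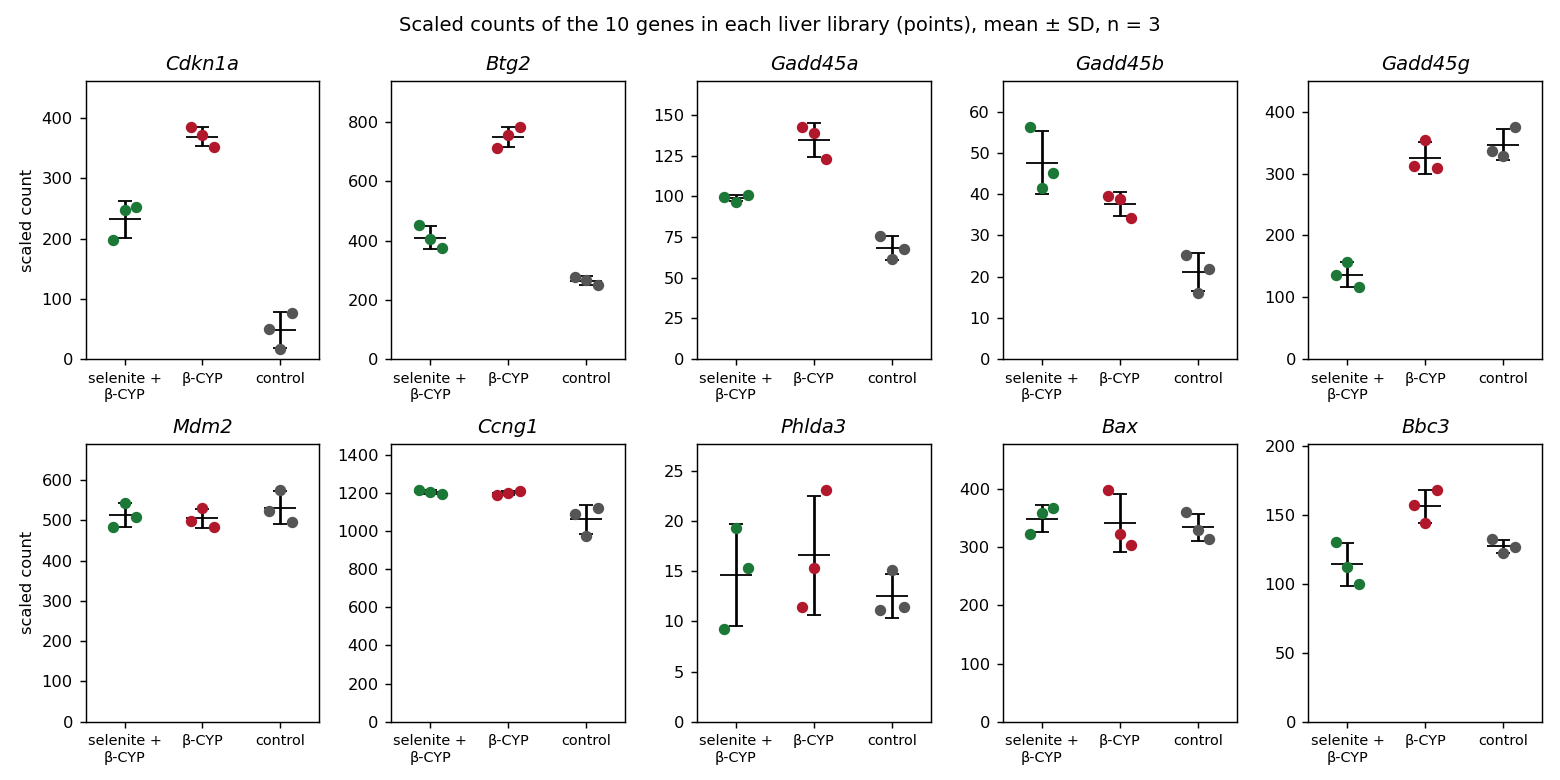
Scaled counts of the 10 genes (linear scale, 1 panel per gene) in each library of the selenite + β-CYP, β-CYP and control groups, left to right, 3 points per group with the mean and SD in black. Cdkn1a, Btg2 and Gadd45a are highest in the β-CYP livers and lowest in the control livers with no overlap, whereas Gadd45g is low in the selenite + β-CYP livers alone.

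Cdkn1a (ENSMUSG00000023067) encodes p21, the inhibitor of cyclin-dependent kinases through which p53 halts the cell cycle in G1. It had 385, 372 and 352 scaled counts in the β-CYP livers and 50.6, 17.1 and 76.6 in the control livers. Every β-CYP library was above every control library, and the low control value is replicate 2, the library with the ribosomal-RNA-like reads, where it rests on 17 reads. The mean was 369.6 ± 16.4 in the β-CYP livers and 48.1 ± 29.8 in the control livers (SD, n = 3 each), a ratio of 7.68. On the log2(scaled count + 1) scale the change was 3.15 ± 0.43 (SE; 95% interval 2.19 to 4.11; limma adjusted p = 0.000684). Without control replicate 2 it was 2.55, and the adjusted p stayed between 6.95e-05 and 0.0162 over 20 alternatives, 9 that leave out 1 library each and 11 with other settings.

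Btg2 (ENSMUSG00000020423) encodes an antiproliferative protein that recruits the mRNA deadenylase and slows cells in G1. It had 712, 755 and 782 scaled counts in the β-CYP livers and 277, 268 and 249 in the control livers. The groups were far apart and each was tight, with means of 749.7 ± 35.0 in the β-CYP livers and 265 ± 14.3 in the control livers (SD, n = 3 each). The log2 change was 1.50 ± 0.086 (95% interval 1.31 to 1.69; limma adjusted p = 1.87e-06), the smallest adjusted p of the 10 genes in this comparison.

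The 3 GADD45 genes encode small acidic proteins that bind PCNA, p21 and the kinase MEKK4 and link growth arrest to stress-kinase signalling. Gadd45a (ENSMUSG00000036390), the member of the family known as a direct p53 target, had 142, 139 and 123 scaled counts in the β-CYP livers and 75.9, 61.4 and 67.4 in the control livers. Its groups did not overlap, and it rose by 0.97 ± 0.14 on the log2 scale (limma adjusted p = 0.000831). Gadd45b (ENSMUSG00000015312), known as a target of NF-κB and TGF-β signalling, had 39.5, 38.8 and 34.2 scaled counts in the β-CYP livers and 25.3, 16.1 and 21.7 in the control livers. The groups did not overlap, but the counts were low, 37 to 38 reads in the β-CYP libraries and 16 to 25 in the control libraries. The log2 change of 0.82 ± 0.24 passed only just (limma adjusted p = 0.0465), and the call was lost in 14 of the 20 alternatives. Leaving out any 1 library other than control replicate 1 lost it, and without control replicate 2 the change was 0.65 (limma adjusted p = 0.123). Gadd45g (ENSMUSG00000021453), best known for its induction by cytokines and for its part in sex determination, had 312, 354 and 309 scaled counts in the β-CYP livers and 337, 329 and 375 in the control livers. Those groups overlapped, and the log2 change was -0.095 ± 0.12 (95% interval -0.37 to 0.18; limma adjusted p = 0.688). With β-CYP alone the scaled counts of Gadd45a and Gadd45b lay above control and those of Gadd45g overlapped it. Whether the 3 genes differ from each other was not tested.

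Mdm2 (ENSMUSG00000020184), the ubiquitin ligase that p53 induces against itself, had 499, 531 and 484 scaled counts in the β-CYP livers and 523, 575 and 496 in the control livers. The groups overlapped, and the log2 change was -0.072 ± 0.077 with a 95% interval of -0.25 to 0.10 (limma adjusted p = 0.619). Ccng1 (ENSMUSG00000020326), cyclin G1, which brings protein phosphatase 2A to Mdm2, had 1189, 1197 and 1208 scaled counts in the β-CYP livers and 1089, 974 and 1118 in the control livers. Every β-CYP library was higher, by a small margin, and the log2 change of 0.18 ± 0.055 did not pass (95% interval 0.054 to 0.30; limma adjusted p = 0.0568). It passed without control replicate 3 (limma adjusted p = 0.0355). Phlda3 (ENSMUSG00000041801), a p53-induced inhibitor of AKT, was near the limit of measurement with 10 to 25 reads per library over these 6 libraries. Its 11.4, 15.3 and 23.1 scaled counts in the β-CYP livers overlapped 11.1, 15.1 and 11.4 in the control livers, and the 95% interval of the log2 change, -0.53 to 1.20, was wide.

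The death genes did not pass with β-CYP. Bax (ENSMUSG00000003873), the pore-forming protein of the outer mitochondrial membrane, had 398, 323 and 303 scaled counts in the β-CYP livers and 360.2, 329 and 314 in the control livers. The groups overlapped fully and the 95% interval of the log2 change ran from -0.23 to 0.28 (limma adjusted p = 0.943). Bbc3 (ENSMUSG00000002083), which encodes PUMA, a BH3-only protein that unleashes Bax, had 157, 144 and 168 scaled counts in the β-CYP livers and 133, 123 and 127 in the control livers. Every β-CYP value was above every control value, but the log2 change of 0.29 ± 0.13 did not pass (95% interval -0.0049 to 0.59; limma adjusted p = 0.187). Counting by overlap alone, 6 of the 10 genes had separate β-CYP and control groups, against 31.6% of all genes tested.

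**Figure D2:**
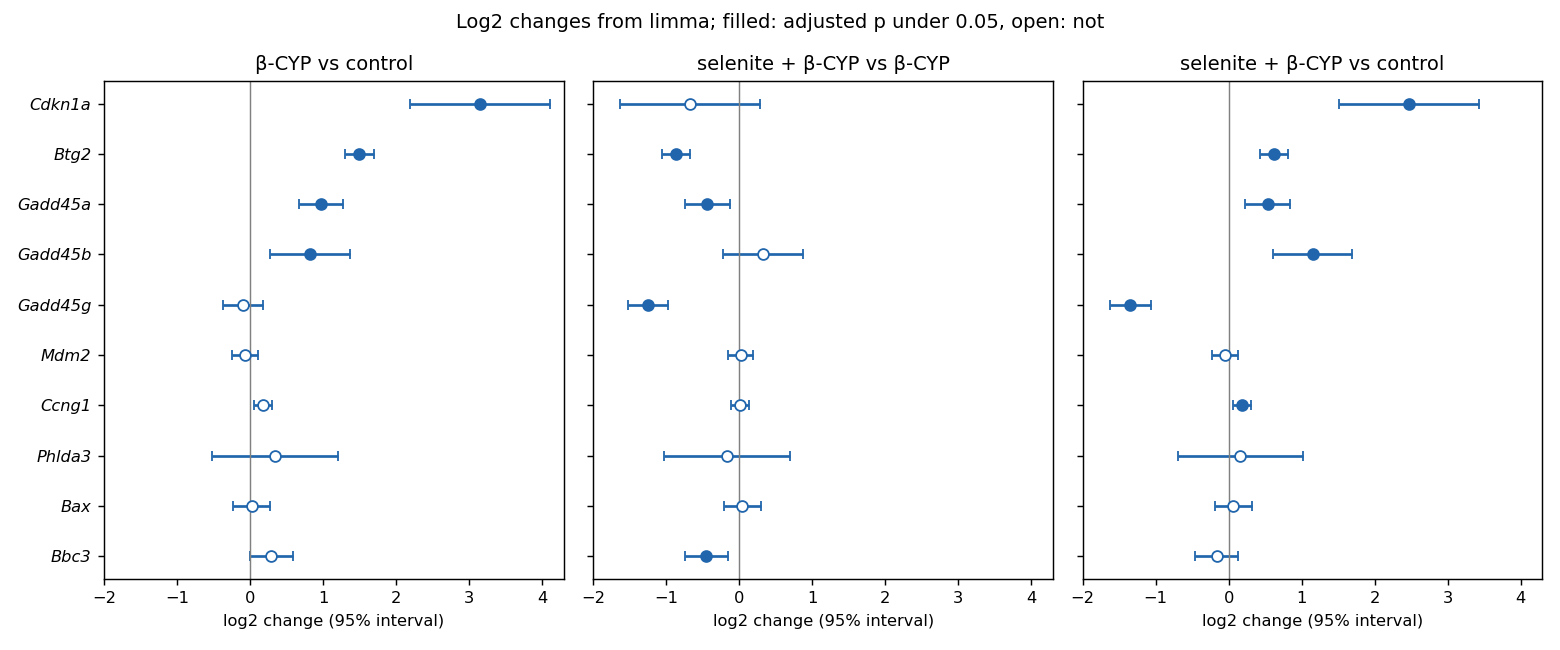
Log2 change of each of the 10 genes in the 3 comparisons, with 95% intervals from limma, filled where the adjusted p was under 0.05 and open where it was not. Cdkn1a has the largest change and the widest interval among the genes called with β-CYP alone. Btg2 and Gadd45a are called in both the first and second panel, with opposite signs. Cdkn1a, Bbc3, Phlda3 and Mdm2 also differ in sign between these panels, which share the β-CYP libraries.

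With selenite + β-CYP against β-CYP alone, 4 of the 10 genes fell, Gadd45g, Btg2, Bbc3 and Gadd45a, and none rose. At an unadjusted p under 0.05 in limma the same numbers, 4 and 0, were found, again without a share of all genes. With limma-voom 5 fell and none rose, beside 2494 down and 2430 up over all 20145 genes. In this comparison 23.9% of all genes passed, 11.6% upward and 12.3% downward. Scaling to equal library totals put the median of all genes at 0.139 and the split of calls at 3238 up and 1335 down, where the deposited scaling gave 2337 up and 2468 down. Under that scaling 2 of the 10 genes fell, Gadd45g and Btg2, and 2 also fell without β-CYP replicate 1 or without selenite + β-CYP replicate 2 or 3. The median log2 change of the 10 genes was -0.31, against 0.017 over all genes. This comparison shares its β-CYP libraries with the one above, so a gene measured high in those libraries tends upward there and downward here.

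Gadd45g had the largest fall. Its scaled counts were 135, 158 and 117 in the selenite + β-CYP livers and 312, 354 and 309 in the β-CYP livers. The selenite + β-CYP libraries were all below all others, including the control libraries, with means of 137 ± 20.4 in the selenite + β-CYP livers, 325 ± 25.4 in the β-CYP livers and 347 ± 24.5 in the control livers (SD, n = 3 each). The log2 change was -1.25 ± 0.12 against β-CYP (limma adjusted p = 5.17e-05) and -1.35 ± 0.12 against control (limma adjusted p = 2.46e-05), and both held in all 20 alternatives. Gadd45g is the gene of the 10 that was below control with selenite while not separated from control with β-CYP alone.

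Btg2 had 452, 404 and 374 scaled counts in the selenite + β-CYP livers and 712, 755 and 782 in the β-CYP livers. The selenite + β-CYP values lay between the other groups without touching either, with a mean of 409.9 ± 39.5 (SD, n = 3). It fell by 0.87 ± 0.086 on the log2 scale against β-CYP (limma adjusted p = 5.45e-05) and stood 0.63 ± 0.086 above control (limma adjusted p = 0.000421). Both calls held in all 20 alternatives.

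Gadd45a had 99.4, 96.9 and 101 scaled counts in the selenite + β-CYP livers and 142, 139 and 123 in the β-CYP livers. These values too lay between β-CYP and control with no overlap. It fell by 0.44 ± 0.14 against β-CYP (limma adjusted p = 0.0426) and was 0.53 ± 0.14 above control (limma adjusted p = 0.0148). The fall was lost in 8 of 20 alternatives, with adjusted p from 0.0130 to 0.200. These include equal totals, where it was -0.31 (-0.45 relative to the median of all genes), and leaving out β-CYP replicate 1 or 2 or any 1 selenite + β-CYP library, with adjusted p between 0.0784 and 0.124.

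Cdkn1a had 197, 248 and 252 scaled counts in the selenite + β-CYP livers and 385, 372 and 352 in the β-CYP livers. The groups did not overlap, with means of 232 ± 30.7 in the selenite + β-CYP livers and 369.6 ± 16.4 in the β-CYP livers (SD, n = 3 each), a ratio of 0.629. The log2 change of -0.67 ± 0.43 nevertheless did not pass (95% interval -1.63 to 0.28; limma adjusted p = 0.314). The model gives all 9 libraries one spread per gene, and the control libraries of Cdkn1a varied far more than the others. Fitting only the 2 groups compared gave a limma adjusted p of 0.0110, leaving out control replicate 2 gave 0.0220, and limma-voom on the recovered reads gave 0.0233. Over all alternatives it ran from 0.0110 to 0.527. Against control, Cdkn1a was still 2.48 ± 0.43 higher with selenite + β-CYP (limma adjusted p = 0.00175), or 1.87 without control replicate 2.

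**Figure D3:**
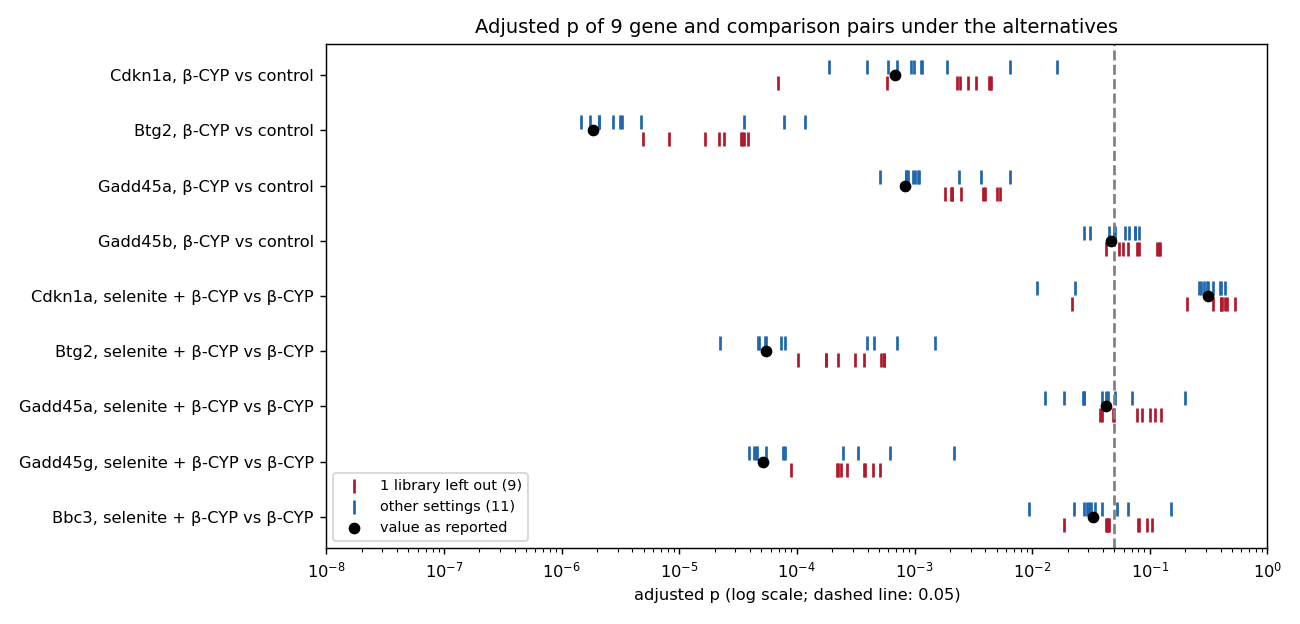
Adjusted p (log scale) of 9 gene and comparison pairs as reported (black points), in 9 fits that leave out 1 library each (red ticks) and under 11 other settings (blue ticks), with a dashed line at 0.05. Btg2 and Gadd45g stay left of the line throughout, the calls of Gadd45b, Gadd45a and Bbc3 that lie next to it cross it, and Cdkn1a between selenite + β-CYP and β-CYP crosses it in 3 fits.

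As a description, the share of the β-CYP rise in mean scaled count that was still present with selenite was 57.3% for Cdkn1a, 46.2% for Gadd45a and 29.9% for Btg2. Gadd45b did not follow them. It had 56.2, 41.5 and 45.0 scaled counts in the selenite + β-CYP livers and 39.5, 38.8 and 34.2 in the β-CYP livers, so the selenite + β-CYP libraries were the highest of the 9. The log2 change against β-CYP was 0.33 ± 0.24 (95% interval -0.22 to 0.87; limma adjusted p = 0.402), and against control it was 1.15 ± 0.24 (limma adjusted p = 0.00565). With selenite + β-CYP, Gadd45b stood at 2.26 times its control mean, Gadd45a at 1.45 times and Gadd45g at 0.394 times, and differences between these genes were not tested.

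Bbc3 had 131, 113 and 99.7 scaled counts in the selenite + β-CYP livers and 157, 144 and 168 in the β-CYP livers. The groups did not overlap, while the selenite + β-CYP and control groups did. It fell by 0.45 ± 0.13 against β-CYP (limma adjusted p = 0.0326). The call was lost in 7 of 20 alternatives, among them equal totals (-0.33, limma adjusted p = 0.151) and leaving out β-CYP replicate 1 (0.0806) or 3 (0.103) or selenite + β-CYP replicate 2 (0.0794) or 3 (0.0948). Its partner Bax had 322, 359 and 367 scaled counts in the selenite + β-CYP livers, inside the range of the β-CYP livers.

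Mdm2, at 484, 543 and 508 scaled counts, and Ccng1, at 1214, 1203 and 1196, were within or next to the β-CYP values in the selenite + β-CYP livers. The 95% intervals of their log2 changes against β-CYP were -0.16 to 0.19 for Mdm2 and -0.12 to 0.13 for Ccng1. Phlda3 had 9.21, 19.4 and 15.3 scaled counts in the selenite + β-CYP livers and overlapped both other groups. In this comparison 6 of the 10 genes had groups that did not overlap, against 37.8% of all genes.

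Against control, 5 of the 10 genes rose with selenite + β-CYP, Cdkn1a, Gadd45b, Btg2, Gadd45a and Ccng1, and 1 fell, Gadd45g. Across all genes 28.9% passed, 14.4% upward and 14.5% downward, and under equal totals the split was 3979 up and 1764 down, with a median over all genes of 0.156. The median log2 change of the 10 genes was 0.17, against 0.027 over all genes. Ccng1 rose by 0.19 ± 0.055 (limma adjusted p = 0.0304). That call was lost in 7 alternatives, including without control replicate 2 (0.0628) and without selenite + β-CYP replicate 1 (0.0765), 2 (0.0700) or 3 (0.0637). The call of Gadd45a was lost under quantile normalization (0.0736). Groups were separate for 6 of the 10 genes, against 41.8% of all genes.

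Levels can be compared between genes only per length, here as scaled counts per kilobase of exon in an annotation other than the authors'. In the selenite + β-CYP livers Ccng1 led with 343, followed by Bax with 222, Btg2 with 149, Gadd45g with 117 and Mdm2 with 101. In the β-CYP livers Ccng1 led again with 341, then Gadd45g with 277, Btg2 with 273, Bax with 217 and Cdkn1a with 104. In the control livers Ccng1 at 302 and Gadd45g at 296 were followed by Bax at 212, Mdm2 at 105 and Btg2 at 96.5. Among these leading genes, neighbouring levels overlapped between libraries for Gadd45g and Mdm2 with selenite + β-CYP, for Gadd45g and Btg2 with β-CYP, and for Ccng1 with Gadd45g and Mdm2 with Btg2 in control. Cdkn1a held the fifth place with β-CYP at a level that overlapped that of Mdm2, the sixth with selenite + β-CYP at 65.4, where it overlapped Gadd45a, and the eighth in control at 13.5, where it overlapped Gadd45b. Phlda3 was the lowest of the 10 in all 3 groups, at 9.39 in the selenite + β-CYP livers, 10.7 in the β-CYP livers and 8.05 in the control livers.

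**Figure D4:**
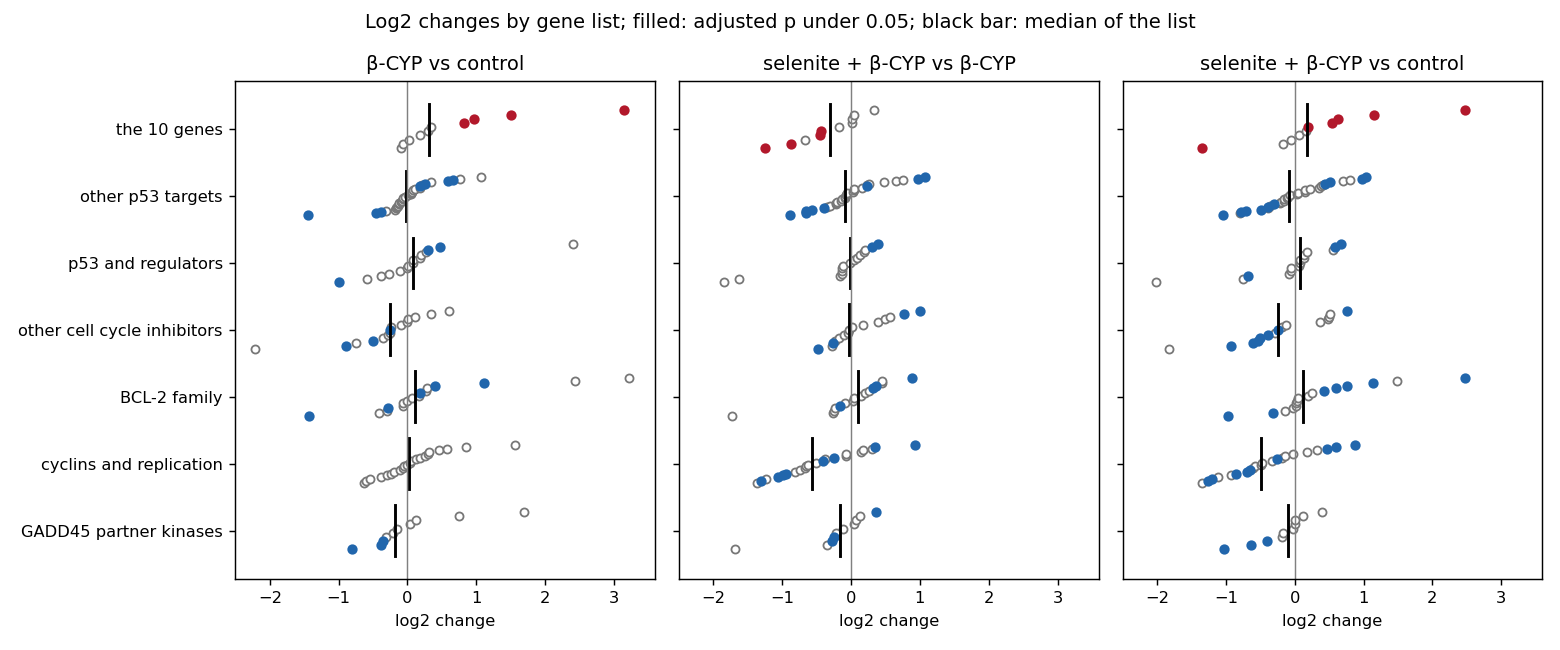
Log2 change of the 10 genes and of the genes in 6 related lists (rows) in the 3 comparisons (panels), filled where the adjusted p was under 0.05 (red for the 10 genes, blue for the lists) and with a black bar at each list's median. With β-CYP alone the median of the 10 genes is 0.31 and those of the lists lie between -0.25 and 0.11.

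In each comparison most of the other p53 targets did not pass. Of 30 other p53 targets, 4 rose and 3 fell with β-CYP against control (23.3%, beside 16.3% of all genes), with a median log2 change of -0.018. The death receptor Fas rose by 0.66 and the peptide transporter Tap1 by 0.59, while the microtubule-associated gene Ckap2 fell by 1.44 and the stress gene Sesn1 by 0.46. With selenite + β-CYP against β-CYP, 3 of the 30 rose and 5 fell (26.7%, beside 23.9%), led by Apaf1, the scaffold of the apoptosome, at 1.07 and Dram1, an autophagy regulator, at 0.97. The kinase Plk3 fell by 0.89 and Trp53inp1, a p53 cofactor in stress responses, by 0.66. Without β-CYP replicate 2, or without selenite + β-CYP replicate 3, 1 rose and 4 fell. Against control, 4 rose and 6 fell (33.3%, beside 28.9%). The balance turned under equal totals, where 5 rose and 4 fell against β-CYP and 7 rose and 5 fell against control.

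Trp53, which encodes p53 itself, had a mean of 663 ± 33.4 scaled counts in the selenite + β-CYP livers, 505 ± 31.1 in the β-CYP livers and 443 ± 24.3 in the control livers (SD, n = 3 each). Its log2 change was 0.19 ± 0.074 with β-CYP against control, which did not pass (limma adjusted p = 0.134). With selenite it rose by 0.39 ± 0.074 against β-CYP (limma adjusted p = 0.00371), in the comparison where Btg2, Gadd45a, Gadd45g and Bbc3 fell. Of 15 genes for p53 and its regulators, 2 rose and 1 fell with β-CYP (20%, beside 16.3% of all genes). The one that fell was Hipk2, a kinase that phosphorylates p53, at -0.99, and Trp53bp1, a DNA damage adaptor, rose by 0.47 and the deacetylase gene Sirt1 by 0.30. None of the 15 rose, and 1 fell, without β-CYP replicate 2 or without selenite + β-CYP replicate 2. With selenite + β-CYP against β-CYP 2 rose (13.3%, beside 23.9%), Trp53 and Hipk2 (0.31). Against control 2 rose and 1 fell (20%, beside 28.9%), or 5 and 1 under equal totals.

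None of 15 other cell cycle inhibitors and antiproliferative genes rose with β-CYP, also in limma-voom and at an unadjusted p under 0.05. Of the 15, 3 fell (20%, beside 16.3% of all genes). These were Gas1 (-0.89), Tob1 (-0.51), which belongs to the same family as Btg2, and the pocket protein gene Rbl2 (-0.25). Against β-CYP, 2 rose with selenite + β-CYP, the pocket protein gene Rbl1 (1.0) and Btg3 (0.77), and 2 fell, Tob2 (-0.49) and Rbl2 (-0.26). That is 26.7%, beside 23.9% of all genes. Rbl1 and Btg3 were both lost without β-CYP replicate 3 or without selenite + β-CYP replicate 1 or 2, where 0 rose and 2 fell. In other alternatives only 1 of the 15 rose. Among these were leaving out β-CYP replicate 1 or control replicate 1, 2 or 3. Fitting only the 2 groups compared, quantile normalization, equal upper quartiles and a fit without intensity trend also gave 1. With selenite + β-CYP against control 1 rose and 6 fell (46.7%, beside 28.9%), or 0 and 4 without control replicate 1 or 3.

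Among 16 genes of the BCL-2 family, to which Bax and Bbc3 belong, 3 rose and 2 fell with β-CYP (31.25%, beside 16.3% of all genes). The BH3-only gene Bmf fell by 1.42, and the survival gene Bcl2a1b, which has near-identical copies and is therefore uncertain, rose by 1.11. Relative to β-CYP 3 rose with selenite + β-CYP, Bik (0.89), Bnip3 (0.36) and Bid (0.31), and Mcl1, which protects hepatocytes from apoptosis, fell by 0.16. That is 25%, beside 23.9% of all genes. Without β-CYP replicate 3, or without selenite + β-CYP replicate 2 or 3, 2 rose and 0 fell. Under equal totals 6 rose and 0 fell with selenite + β-CYP against β-CYP, and 1 rose and 1 fell with β-CYP against control. Against control 5 rose and 2 fell with selenite + β-CYP (43.75%, beside 28.9%). The counts were 2 and 2 without control replicate 2, 1 and 2 without selenite + β-CYP replicate 1, and 1 and 1 without selenite + β-CYP replicate 3.

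None of 22 cyclins, their kinases and replication factors passed in limma with β-CYP in either direction, beside 16.3% of all genes. Their median log2 change was 0.018. At an unadjusted p under 0.05, 2 were higher and 2 lower. Fitting only the 2 groups compared called 2 lower. Limma-voom, quantile normalization, a fit without intensity trend and a filter at a mean of 10 each called 1 lower. Leaving out 1 library gave at most 1 call. Set against β-CYP, 6 of the 22 fell with selenite + β-CYP and 2 rose (36.4%, beside 23.9%). The median was -0.57, against 0.017 over all genes. The replication helicase gene Mcm5 fell by 1.31, the topoisomerase gene Top2a by 1.06, the proliferation marker Mki67 by 0.98 and the S-phase transcription factor E2f1 by 0.95. Without β-CYP replicate 1 or 2, 4 fell and 0 rose, and without β-CYP replicate 3, 3 fell and 2 rose. Against control 6 fell and 3 rose (40.9%, beside 28.9%). The kinases of the pathway that GADD45 proteins feed, 9 genes with 10 entries in the table, had 3 falls with β-CYP, in Map2k6 (-0.81), Map3k4 (-0.39), which encodes the GADD45-binding kinase MEKK4, and Mapk9 (-0.35). That is 30% of the entries, beside 16.3% of all genes. Without β-CYP replicate 2, 1 fell and none rose, and without β-CYP replicate 3, 1 fell and 1 rose. Map3k4 rose by 0.36 with selenite + β-CYP against β-CYP, while Mapk9 and Mapk14 fell by 0.28 and 0.25 (30%, beside 23.9%). In that comparison none passed in a fit without intensity trend, and none rose and 1 fell with only the 2 groups compared. Likewise none rose and 1 fell without selenite + β-CYP replicate 2. None rose and 3 fell without β-CYP replicate 3, and 1 rose and none fell under equal totals. Against control none rose with selenite + β-CYP and 3 fell (30%, beside 28.9%).

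For each of the 10 genes the most similar profiles were looked up among 10512 genes with a mean of at least 100 scaled counts, by Pearson's r of log2 values over the 9 libraries. These are descriptions, since the libraries form 3 groups and any gene that follows the groups will correlate. Btg2 was closest to C4bp (r = 0.993), Mbl1 (0.992) and Fgl1 (0.991). Gadd45a was closest to Cyp2d40 (0.994), Plin5 (0.989) and Scara5 (0.989). Gadd45g was closest to Gm15542 (0.995), Gcsh (0.995) and Scpep1 (0.992), and Cdkn1a to Upf3a (0.985), Brd2 (0.985) and Fabp4 (0.976). Gadd45b was closest to Il4ra (0.977) and Ccng1 to Kng2 (0.971). The 4 genes that rose with β-CYP had none of their 3 nearest genes in common. With so few kept of 10512 genes, this cannot show that their profiles differ.

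No label says if reads were assigned by strand. Cdkn1a shares up to 261 bases of exon with AC167363.2 and Gadd45a up to 317 with E230016M11Rik, both on the opposite strand, and Bax shares up to 140 with Gm45808 on its own strand. E230016M11Rik had at most 18 reads in a library and Gm45808 at most 23. AC167363.2 was not found by symbol among the genes measured, so its reads could not be checked.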

How the data were processed

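The authors deposited a single log2 table with an Ensembl identifier, a symbol and 1 column per library, all 9 of which match the labels. HISAT, Cufflinks and mm9 are listed, per the submitters' processing notes, without versions or roles. How reads were counted, and with which annotation, is not stated there. The authors' log2 values equal log2(read count × a library factor + 1). Undoing this gave whole reads for 100% of values in every library (tolerance 0.02), and the factors equal median-of-ratios factors in 9 of 9 libraries (relative tolerance 1e-06). This scaling takes the typical gene as constant.

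limma 3.58.1 in R 4.3.3 fitted 3 group means, with an intensity trend, to log2(scaled count + 1) of the 9 libraries, for genes averaging at least 1. Two-sided p-values were adjusted by Benjamini and Hochberg's method over 20145 genes, and 0.05 was the threshold. Changes of low genes are understated on this scale. The fitting code was tested on simulated data. Since the table is log2, count models were left to an alternative, limma-voom on the recovered reads. There were 20 alternatives: 11 settings and 9 fits without 1 library each. At the median of the better-covered genes, no pair of replicates agreed within sampling noise. Single groups of the 10 genes were tighter or wider than counting alone would give. The SD of Gadd45a in the selenite + β-CYP livers was 1.95% of the mean, beside 9.71% from counting. That of Cdkn1a in the control livers was 62.0%, beside 15.0%.

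The 10 genes, the lists of related genes and the cell type markers were chosen with earlier results of these data known. Named list genes are at most the 4 with the largest change among those that passed, per list and comparison, plus Trp53, and the nearest profiles are the 3 highest correlations per gene. Promoters come from RefSeq and exon lengths from GENCODE M21, both on GRCm38. The design text names a HiSeq instrument and the library protocol a BGISEQ one.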

Additional observations from a re-analysis of the deposited data

How the results depend on the processing

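The number of the 10 genes that fell with selenite + β-CYP against β-CYP, 4 as reported, was 2 under equal totals, 2 with a replicate block and 2 to 5 when 1 library was left out. The counts of all genes called moved by less than 1.5 times under all 20 alternatives. They ran from 3897 to 4924 for selenite + β-CYP against β-CYP, from 2480 to 3346 for β-CYP against control, and from 4931 to 5922 for selenite + β-CYP against control. Replicate numbers are shared between groups. Deviations from the group means correlated between same-numbered libraries with r from -0.111 to 0.094 over 10520 genes. Between differently numbered libraries r ran from -0.118 to 0.175. These values cannot show whether same-numbered libraries were paired, so a fit with a replicate block is given as an alternative. With the block, 2956, 4481 and 5506 genes were called in β-CYP against control, selenite + β-CYP against β-CYP and selenite + β-CYP against control, and Gadd45b (0.0609, β-CYP against control), Bbc3 (0.0527) and Gadd45a (0.0705, both selenite + β-CYP against β-CYP) lost their calls.

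Signs turned only for changes that were not called. Under other settings these were Mdm2 (-0.0054) and Bax (-0.0073) under quantile normalization and Ccng1 (-0.0030) under equal upper quartiles, all in selenite + β-CYP against β-CYP, and Mdm2 against control under equal totals (0.083). Leaving out 1 library, log2 changes of selenite + β-CYP against β-CYP ran from -0.025 to 0.058 for Mdm2, from -0.40 to 0.10 for Phlda3 and from -0.040 to 0.16 for Bax. Against control they ran from -0.10 to 0.0053 for Mdm2 and from -0.058 to 0.44 for Phlda3. For β-CYP against control, Bax ran from -0.095 to 0.10. The cause was not tested. Depth limits Phlda3, which had 25 reads or fewer in every library.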
